A study of Mus musculus with 28 samples.

Results

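The genes described here encode the nuclear subunits of the mitochondrial respiratory chain and ATP synthase. They were taken by symbol: every gene whose only symbol in the platform annotation starts with Ndufa, Ndufb, Ndufc, Ndufs, Ndufv, Sdha, Sdhb, Sdhc, Sdhd, Uqcr, Cox4i, Cox5, Cox6, Cox7, Cox8 or Atp5, with the Ndufaf assembly factors left out. This rule found 86 of the 18193 genes on the array, and all 86 were among the 13931 genes bright enough to test. They comprised 6 genes of the catalytic core of complex I and 28 of its accessory subunits, 4 subunits and 4 assembly factors of complex II (the Sdhaf genes share the prefix), 3 core and 5 accessory subunits of complex III, 19 genes of complex IV, and 5 F1 and 12 Fo or stalk genes of ATP synthase. A further 10 probe sets that list a member beside another symbol were not used here.

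Expression was measured on 28 one-colour Affymetrix mouse arrays from 10 medulloblastomas, 6 gliomas and 12 normal brains. Medulloblastoma arises in the cerebellum, and glioma shows glial features. Rictor is a component that the kinase complex mTORC2 cannot do without, and the series set tumours and brains that had lost it beside ones that had not. Every mouse except 1 was hGFAP-Cre p53-/-, where the Cre is driven by a human GFAP promoter fragment active in neural progenitors and glia. The medulloblastomas were 5 Rictor-null (Rictor-/-), 2 Rictor-heterozygous (Rictor+/-) and 3 from mice with no Rictor change (p53-null only). The gliomas were 4 Rictor-heterozygous, 1 Rictor-null and 1 p53-null only. Of the normal brains 5 were Rictor-null, 5 were Rictor-heterozygous, 1 was p53-null only and 1 was wild type. Tumours were snap frozen, and by the labels at least 70% of their cells were tumour cells. An array is called here by its tissue and the code in its title, such as medulloblastoma C1. Whether each array stands for an animal of its own is not stated, so every p-value reflects only the variation among these arrays, part of which may be technical.

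Intensity of the Rictor probe set, which checks the labels only if it lies within the deleted part, was 68.8 to 236 in the 5 medulloblastomas labelled Rictor-null against 261 to 277 in the 2 heterozygous ones and 223 to 273 in the 3 p53-null-only ones. In normal brains labelled Rictor-null it was 213 to 444, which overlapped the 250.5 to 389 of the heterozygous ones. Tissue labels were checked with markers. Atoh1, a granule neuron precursor factor, was at 37.5 to 1679 in medulloblastoma and 4.2 to 10.3 in glioma, and Olig2, an oligodendrocyte lineage factor, was at 1073 to 1781 in glioma and at most 345 in medulloblastoma. Normal brain C2 had Atoh1 at 176, above medulloblastoma C6 (37.5), where the other normal brains were at most 21.1. Its Mki67 (275), Top2a (233) and Mycn (379.5) were also the highest of the normal brains, though below every medulloblastoma. Leaving C2 out gave 1 higher and 47 lower members in medulloblastoma and 4 and 31 in glioma, beside the 2 and 49 and the 4 and 30 reported below with it. The cerebellar granule neuron gene Gabra6 was at 1740.4, 4153 and 4918 in normal brains B2, C5 and Z2 and at most 116 in the other 9. The normal brains were thus not alike in this cerebellar marker, and most were low in it. Medulloblastoma arises in the cerebellum, and the part of brain region in its differences from normal brain was not tested.

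Complexes I and II take electrons from NADH and succinate, and complexes III and IV pass them on to oxygen. All except complex II pump protons across the inner mitochondrial membrane as they do so, and ATP synthase uses the resulting gradient to make ATP. Most subunits are encoded in the nucleus and imported, while a small hydrophobic set is encoded in mitochondrial DNA. Neurons depend heavily on this pathway to restore ion gradients after firing, and proliferating tumour cells are known to combine it with glycolysis to varying degrees.

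The predominant change was lower expression in both tumours than in normal brain. In medulloblastoma 49 members were lower and 2 higher at an adjusted p under 0.05, where the background over all genes tested was 32% lower and 32.2% higher (64.2% in either direction). The 49 are 57.0% of the members, and the 2 that rose are Ndufa2 and Atp5e. In glioma 30 members were lower and 4 higher, against a background of 25.5% lower and 28.4% higher, so that 34.9% of the members were lower. The median log2 difference from normal brain was -0.36 in medulloblastoma and -0.26 in glioma over the 86 members, beside 0.01 and 0.05 over all genes tested. The members were bright, with a median at percentile 96.6 of mean log2 intensity, so the background consists mostly of dimmer genes. Log2 differences are differences in log2(intensity + 6.3), written tumour minus normal brain with their standard error, and both tumour comparisons use the same 12 normal brains. Where a pair of differences or adjusted p-values follows without naming the tumours, medulloblastoma comes first. In a bulk sample, fewer cells of a type and less RNA per cell cannot be told apart.

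**Figure D1:**
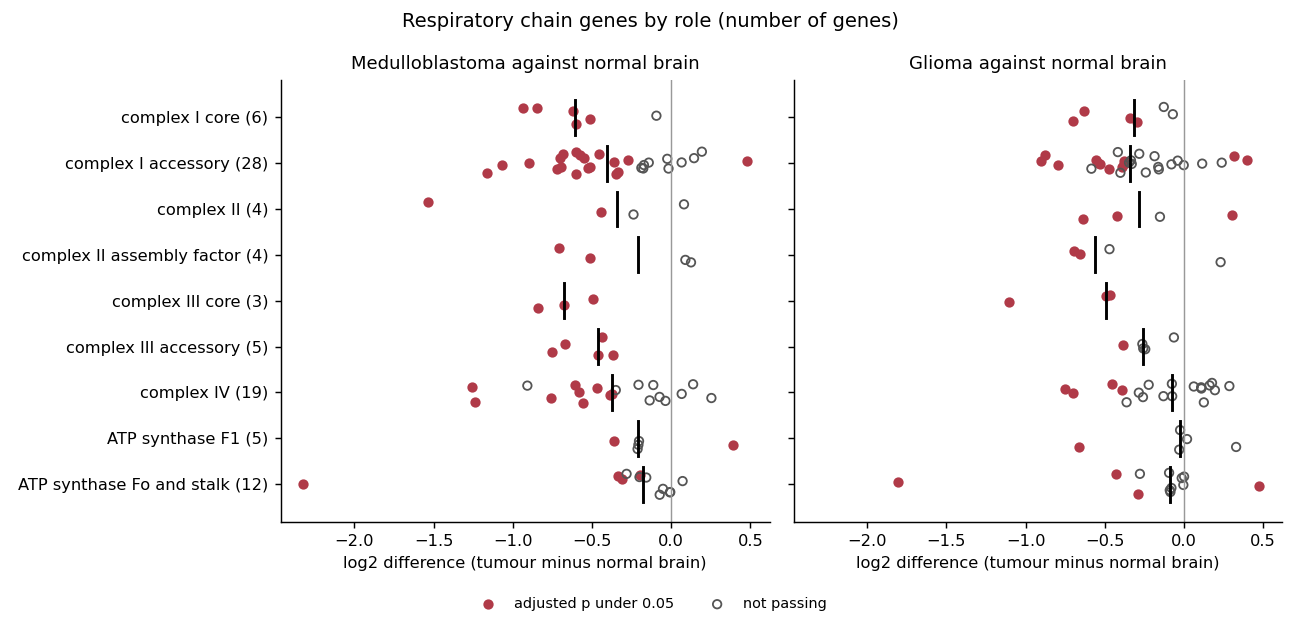
Log2 difference of each member between tumour and normal brain (horizontal axis), by role in the respiratory chain (rows, with the number of genes). Filled points passed an adjusted p of 0.05 and bars mark the median of a row. The medians lie below 0 in every row of both panels, with complex III core at -0.68 in medulloblastoma and -0.49 in glioma and the F1 genes at -0.21 and -0.02.

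Role groups differed in how many of their genes fell, where 32% of all genes tested fell in medulloblastoma and 25.5% in glioma. All 3 complex III core genes fell in both tumours, with medians of -0.68 in medulloblastoma and -0.49 in glioma. In the complex I core 5 of 6 genes fell in medulloblastoma (median -0.61) and 4 of 6 in glioma (median -0.32). Among the accessory genes of complex I, 18 of 28 fell and 1 rose in medulloblastoma, and 10 fell and 2 rose in glioma. In complex IV 9 of 19 fell in medulloblastoma and 4 of 19 in glioma. The 9 include the dim alternative isoforms Cox6a2, Cox7a1, Cox7b2 and Ndufa4l2, and the 4 include Cox7b2. Of the 5 F1 genes of ATP synthase 1 fell in each tumour, and of its 12 Fo and stalk genes 4 fell in medulloblastoma and 3 in glioma. The F1, Fo and stalk counts in both tumours, and the complex IV count in glioma, were near or below the share over all genes. No test of a difference between role groups was run.

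The mean log2 value over the 75 members with a mean of 7 or more summarises each array. Its lowest, median and highest values were 10.39, 10.56 and 10.82 in normal brain, 10.02, 10.32 and 10.42 in glioma and 9.96, 10.11 and 10.65 in medulloblastoma. Both tumours overlapped normal brain. Medulloblastomas C1 (10.65) and A3 (10.55) reached the normal range while the other 8 lay at or below 10.28, and gliomas B1 (10.42) and A4 (10.41) lay just above the lowest normal brains. C1 was the highest medulloblastoma in 37 of the 75 genes and A3 in 24, whereas A6 was lowest in 25 and A5 in 19. Glioma B7 was the lowest glioma in 48 of 75. Among normal brains B2 was highest in 40 of 75, and B2 was 1 of the 3 brains with high Gabra6. Those 3 brains spanned 10.39 to 10.82 and the other 9 spanned 10.39 to 10.65. How often an array was highest or lowest was not counted over all genes tested. These counts therefore cannot set the members apart from other genes on an array.

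**Figure D2:**
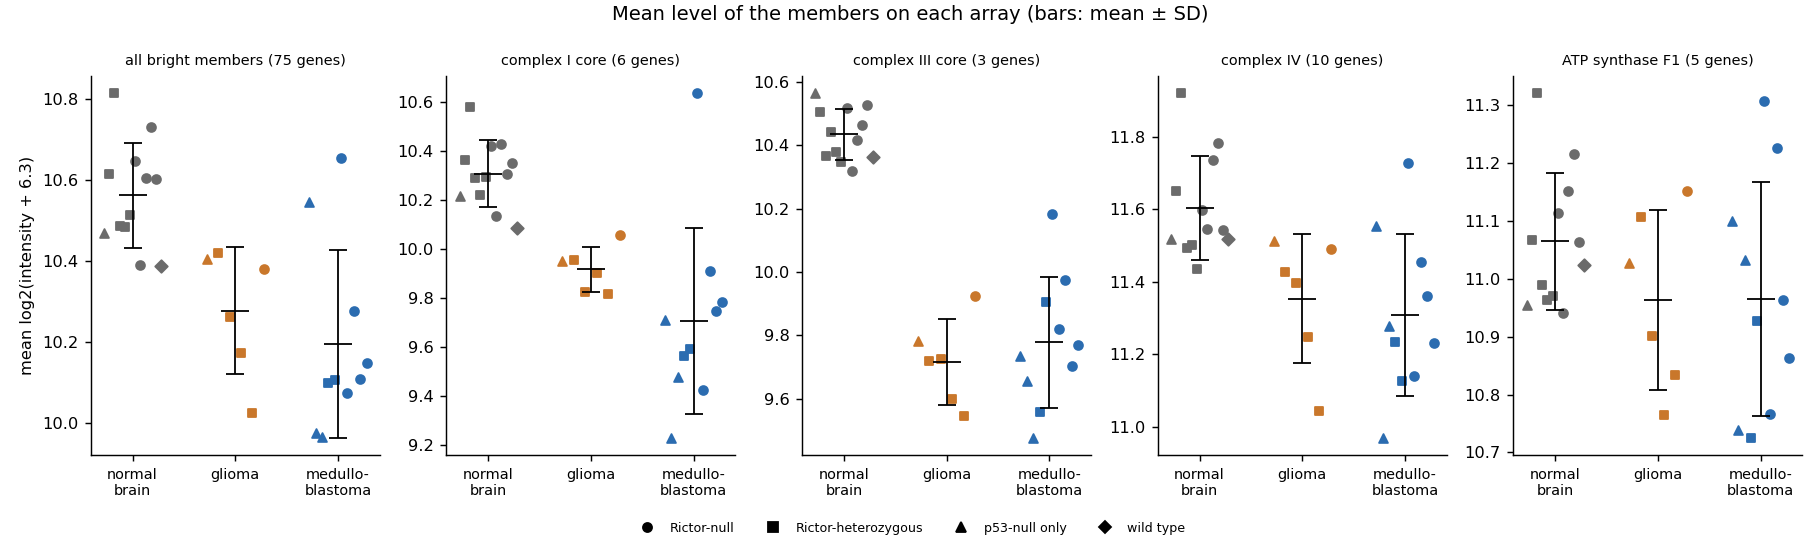
Mean log2(intensity + 6.3) over groups of members (vertical axis) on each array, by tissue, with symbols for genotype and bars for mean ± SD over 12 normal brains, 6 gliomas and 10 medulloblastomas. Complex III core separates normal brain from both tumours, with every normal brain at 10.32 or above and every tumour at 10.18 or below, while the F1 genes overlap widely.

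Other measures moved with tissue. Over 10 neuron markers the mean log2 value was 9.78 to 10.68 in normal brain, 4.87 to 8.04 in glioma and 6.22 to 9.11 in medulloblastoma. None of the tumours reached the lowest normal brain. Over 6 cell cycle markers it was 3.71 to 7.25, 7.39 to 9.84 and 9.06 to 10.32 in the same order. The ratio of 3' to 5' actin signal, which rises as RNA degrades, had medians of 3.47 in normal brain, 2.21 in glioma and 2.57 in medulloblastoma. Among the medulloblastomas it was lowest in A3, at 1.49, followed by A5, at 1.53, where member values were low. Among normal brains it was 6.01 in B2, with the highest mean member value, and 6.21 in Z2, with the lowest. The part of cell makeup and RNA quality in the differences was not tested beyond a fit with the actin ratio as a covariate.

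The titles carry either of 2 prefixes, YZ and YZ2, whose meaning the labels do not give. Within YZ the median member difference from normal brain was -0.37 in medulloblastoma (5 against 5 arrays, 23 lower and 1 higher) and -0.22 in glioma (4 against 5, 12 lower and 2 higher). Within YZ2 it was -0.28 in medulloblastoma (5 against 7, 36 lower and 2 higher) and -0.34 in glioma (2 against 7, 11 lower and 0 higher). The direction was therefore the same within each prefix. Quantile normalization gave 61 lower members in medulloblastoma and 42 in glioma. The share of all genes called in these fits is not given here, so these counts alone do not set the members apart from other genes.

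Promoter windows were examined because many members moved in one direction. RefSeq windows of assembly GRCm38.p6, from 250 bases before to 50 after the annotated start, were matched for 71 of the 86 members and were searched on both strands for 3 motifs of factors known to bind promoters of these genes. The ETS core CCGGAAG, the site of factors such as GABP, was in 20 member windows (28.2%) and in 9.93% of 27025 genes. The NRF1 core GCGCATGCG was in 7 (9.86%) against 1.95%, and the YY1 core AANATGGCG in 10 (14.1%) against 2.76%. The 27025 genes were not limited to those tested or to genes as bright as the members. Whether other bright genes hold these cores as often was not tested. Among the 40 members with a window that fell in medulloblastoma, 11 held the ETS core, 5 the NRF1 core and 4 the YY1 core. Among the other 31 the counts were 9, 2 and 6. A match is a description of letters, not a bound site. The 120 bases before the start are shown for 5 members with an upstream match, 3 that fell in medulloblastoma (Ndufs3, Uqcr11 and Atp5k), 1 that rose there (Atp5e) and 1 that rose in glioma (Atp5g2). Capitals mark the ETS core in Ndufs3, Uqcr11 and Atp5e, and the Atp5e window holds it on the other strand. In Atp5k and Atp5g2 they mark the NRF1 core, where matches on both strands overlap. An NRF1 core of Uqcr11 begins in its last printed bases, runs past the start and was left in lower case.
Ndufs3: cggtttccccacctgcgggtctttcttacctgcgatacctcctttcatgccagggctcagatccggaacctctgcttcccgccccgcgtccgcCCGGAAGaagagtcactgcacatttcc
Uqcr11: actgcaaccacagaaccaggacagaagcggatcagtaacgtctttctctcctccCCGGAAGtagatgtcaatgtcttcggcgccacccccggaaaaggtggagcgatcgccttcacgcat
Atp5k: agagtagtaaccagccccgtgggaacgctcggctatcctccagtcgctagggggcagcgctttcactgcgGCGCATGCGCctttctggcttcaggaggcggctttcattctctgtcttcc
Atp5g2: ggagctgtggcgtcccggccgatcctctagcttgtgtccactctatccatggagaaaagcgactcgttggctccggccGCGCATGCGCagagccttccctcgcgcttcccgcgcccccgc
Atp5e: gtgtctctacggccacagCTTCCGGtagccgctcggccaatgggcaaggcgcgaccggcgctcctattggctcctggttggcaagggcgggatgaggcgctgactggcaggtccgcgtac
These windows lie on the minus strand at chr2:90904722-90904841 (Ndufs3), chr10:80406822-80406941 (Uqcr11), chr5:108434400-108434519 (Atp5k), chr15:102671048-102671167 (Atp5g2) and chr2:174464102-174464221 (Atp5e). Of the ETS windows shown, Ndufs3 and Uqcr11 fell and Atp5e rose in medulloblastoma, though the Atp5e call ended on some omissions of 1 array. Of the NRF1 windows shown, Atp5k fell in medulloblastoma and Atp5g2 rose in glioma, so these directions come from different tumours. The first capital lies 27, 66, 50, 42 and 102 bases before the start, in the order shown.

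Complex I takes electrons from NADH through the flavin of Ndufv1 and a chain of iron-sulfur clusters to ubiquinone. Ndufs1, its largest iron-sulfur subunit, had intensities (lowest, median and highest) of 693, 778 and 876 in normal brain, 427, 500.4 and 557 in glioma and 293, 417 and 616 in medulloblastoma. All tumours lay below all normal brains, with log2 differences of -0.84 ± 0.10 (adjusted p = 3.23e-08) in medulloblastoma and -0.63 ± 0.11 (adjusted p = 3.18e-05) in glioma. Ndufv1 was at 593, 1403 and 1764 in normal brain, 522, 958 and 1070.1 in glioma and 309, 737 and 3306 in medulloblastoma. The highest value belongs to medulloblastoma C1, and the lowest normal value to the wild-type brain Z2. It fell by 0.94 ± 0.25 on the log2 scale in medulloblastoma (adjusted p = 0.00162) and by 0.70 ± 0.28 in glioma (adjusted p = 0.0373). Within prefix YZ, which holds C1, the medulloblastoma difference of Ndufv1 was -0.38, adjusted p = 0.493. Ndufs3, whose promoter is shown above, was at 974, 1198 and 1229 in normal brain, 682, 925 and 1161 in glioma and 605, 714 and 1062 in medulloblastoma, with differences of -0.62 ± 0.11 (adjusted p = 1.25e-05) and -0.34 ± 0.12 (adjusted p = 0.0195). Ndufs7, which carries the cluster next to ubiquinone, was at 958, 1199 and 1431 in normal brain, 772, 944 and 1105 in glioma and 558, 779 and 974 in medulloblastoma, with differences of -0.60 ± 0.10 (adjusted p = 1.35e-05) and -0.30 ± 0.12 (adjusted p = 0.035). Gliomas and normal brains overlapped in both genes. Ndufs8, another iron-sulfur subunit, fell in medulloblastoma (-0.51 ± 0.20, adjusted p = 0.0309), where C1 stood at 3963 and the other medulloblastomas at 677 to 1578. Its glioma difference was -0.13 ± 0.23 (adjusted p = 0.67). Ndufv2, the partner of Ndufv1 in the flavin module, passed in neither tumour, at -0.09 ± 0.12 (adjusted p = 0.498) and -0.07 ± 0.13 (adjusted p = 0.68).

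Some of these calls rested on single arrays. That of Ndufs8 in medulloblastoma ended without medulloblastoma C2 (-0.42, adjusted p = 0.0719), B4 (-0.47), B6 (-0.48) or C6 (-0.45). In glioma the Ndufs3 call ended without glioma B3 (-0.28, adjusted p = 0.0627). The Ndufv1 call in glioma ended on omission of normal brain A6, B1 or B2 or of glioma A4, B1 or C3 (-0.71 to -0.62). The Ndufs7 call there ended on omission of glioma B2, B7 or C3 or of normal brain B1, B2 or B4 (-0.29 to -0.25).

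The accessory subunits surround the complex I core and are needed to assemble or stabilise it. Ndufv3, an accessory subunit of the NADH-oxidising arm, fell most in medulloblastoma (-1.16 ± 0.23, adjusted p = 0.00011). Its intensities were 1266, 1672 and 2167 in normal brain, 892, 1011 and 1558 in glioma and 178, 783 and 1358 in medulloblastoma, and C1, at the top of the medulloblastomas, reached the normal range. In glioma the Ndufv3 difference of -0.58 ± 0.27 (adjusted p = 0.0685) did not pass. Ndufa6 was at 914, 1192 and 1599 in normal brain, 479, 652 and 896 in glioma and 382, 605 and 886 in medulloblastoma, so that all tumours lay below all normal brains. It differed by -1.07 ± 0.13 (adjusted p = 6.49e-08) in medulloblastoma and -0.88 ± 0.15 (adjusted p = 1.69e-05) in glioma. Ndufa3 fell in medulloblastoma (-0.90 ± 0.15, adjusted p = 1.39e-05), where it was at 532, 1127 and 1492 against 1458, 1801 and 2756 in normal brain. Glioma, at 1284, 1665 and 2049.5, was within the spread of normal brain (-0.19 ± 0.18, adjusted p = 0.389).

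In glioma the largest falls of accessory genes were in Ndufab1, Ndufa6 and Ndufs5. Ndufab1 is the mitochondrial acyl carrier protein, which also serves fatty acid and lipoic acid synthesis. It was at 868, 1079 and 1191 in normal brain, 387, 580.1 and 695 in glioma and 476, 777 and 902 in medulloblastoma, and no glioma reached a normal brain. Its differences were -0.90 ± 0.13 (adjusted p = 1.47e-06) in glioma and -0.51 ± 0.11 (adjusted p = 0.00023) in medulloblastoma. They depended on the probe set: the mean of its probe sets gave -0.09 in glioma and 0.09 in medulloblastoma, and a dim one was called higher in medulloblastoma. Ndufs5 differed by -0.80 ± 0.15 (adjusted p = 0.000104) in glioma and -0.69 ± 0.13 (adjusted p = 6.95e-05) in medulloblastoma, with intensities of 613, 740.4 and 822 in glioma and 499, 719 and 1192 in medulloblastoma against 653, 1314 and 1699 in normal brain, where the lowest is the wild-type brain Z2.

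Ndufa2 ran the other way in medulloblastoma. It was at 1483, 1798 and 2799 there, 1137, 1389.7 and 1603 in normal brain and 1002, 1175 and 1876 in glioma, a log2 difference of 0.48 ± 0.11 (adjusted p = 0.000428) between medulloblastoma and normal brain. Its glioma value of -0.08 ± 0.13 (adjusted p = 0.621) did not pass. In glioma, Ndufb7 (0.40 ± 0.14, adjusted p = 0.0183) and Ndufb11 (0.32 ± 0.13, adjusted p = 0.0371) were higher than in normal brain, each with glioma B1 highest, at 2167 and 3778. Without glioma B1 their differences were 0.29, adjusted p = 0.0727 and 0.22, adjusted p = 0.131. The Ndufb7 call also ended without glioma A4 (0.31) or C3 (0.38), and that of Ndufb11 on omission of normal brain A6, B4, B6 or B7 or of glioma A4, B1, B2 or C3 (0.22 to 0.32). Within prefix YZ2 their differences were near 0 (0.03 and 0.07).

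Complex II, succinate dehydrogenase, belongs both to the respiratory chain and to the citric acid cycle. Sdha, the flavoprotein that oxidises succinate, ordered the tissues without overlap: it was at 1184, 1491 and 1932 in normal brain, 884, 949 and 1058 in glioma and 333, 475 and 805 in medulloblastoma. The log2 differences were -1.54 ± 0.13 (adjusted p = 2.4e-10) for medulloblastoma against normal brain, -0.63 ± 0.15 (adjusted p = 0.000868) for glioma against normal brain and -0.90 ± 0.16 (adjusted p = 9.99e-05) for medulloblastoma against glioma. A further bright probe set of Sdha gave -1.94 in medulloblastoma and -1.40 in glioma. Sdhb, the iron-sulfur subunit, fell in medulloblastoma (-0.44 ± 0.09, adjusted p = 0.000194) and was at -0.15 ± 0.11 (adjusted p = 0.239) in glioma. The membrane anchors Sdhc and Sdhd differed in direction in glioma. Sdhd was at 263, 416 and 587 there against 479.9, 531 and 614 in normal brain (-0.42 ± 0.14, adjusted p = 0.0107), while Sdhc was at 349, 371 and 493 against 245, 318 and 367 (0.30 ± 0.11, adjusted p = 0.017). The Sdhc call ended without glioma B1 (0.25, adjusted p = 0.058). In medulloblastoma neither passed, at -0.24 ± 0.12 (adjusted p = 0.082) for Sdhd and 0.08 ± 0.09 (adjusted p = 0.454) for Sdhc.

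Of the complex II assembly factors, Sdhaf2, which helps to attach the flavin to Sdha, fell in medulloblastoma (-0.71 ± 0.18, adjusted p = 0.00109) and was at -0.47 ± 0.20 (adjusted p = 0.0519) in glioma. Sdhaf4, which binds flavinated Sdha, fell in both, at -0.51 ± 0.17 (adjusted p = 0.0111) and -0.69 ± 0.20 (adjusted p = 0.00422). Sdhaf3, a factor for iron-sulfur insertion into Sdhb, fell in glioma (-0.66 ± 0.22, adjusted p = 0.0156) and was at 0.13 ± 0.20 (adjusted p = 0.595) in medulloblastoma. Sdhaf1 passed in neither, at 0.09 ± 0.16 (adjusted p = 0.638) and 0.23 ± 0.18 (adjusted p = 0.289).

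**Figure D3:**
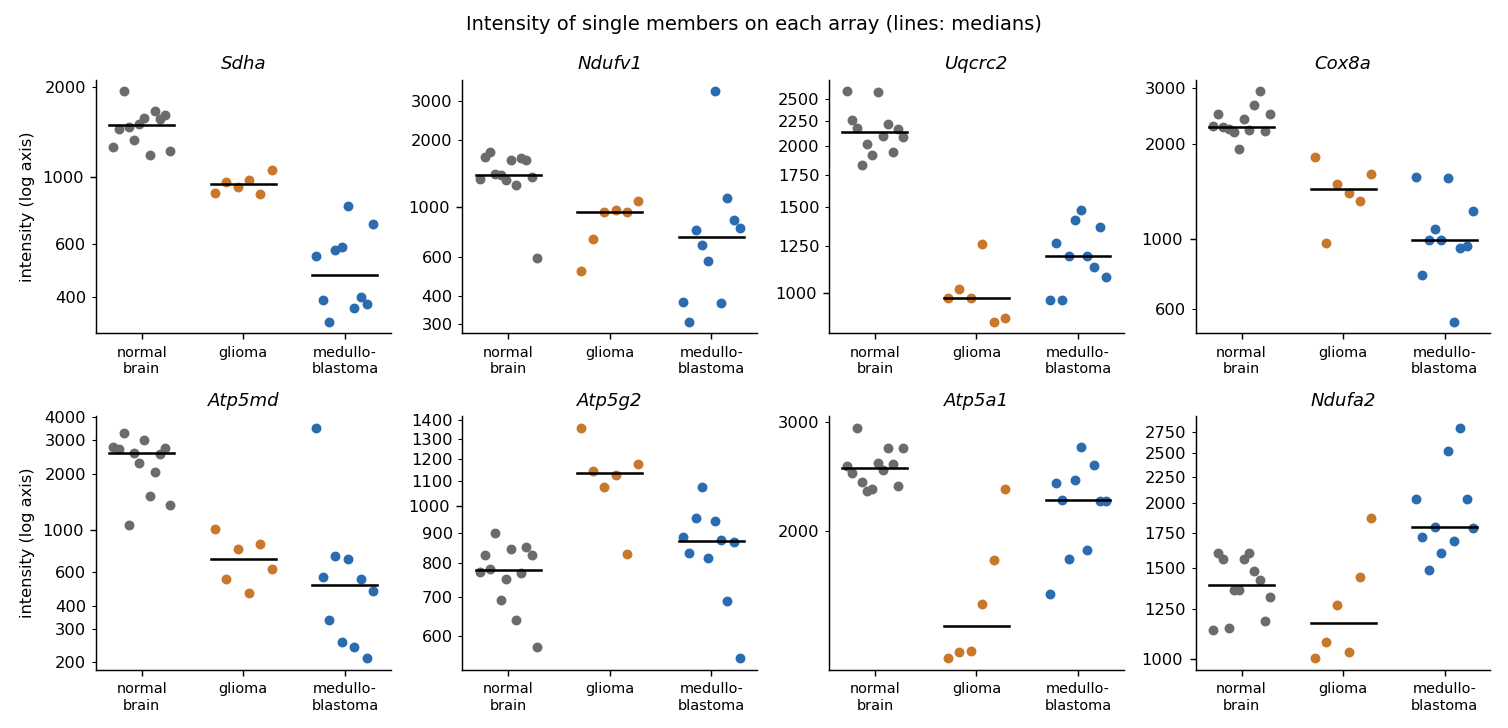
Intensity on each array (vertical log axes, which do not start at 0) of 8 members by tissue, with lines at the medians of 12 normal brains, 6 gliomas and 10 medulloblastomas. Sdha, Uqcrc2 and Cox8a lie below every normal brain in both tumours, Atp5md does so in all tumours except medulloblastoma A3 (3493), and the median of Ndufa2 is highest in medulloblastoma.

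Complex III passes electrons from ubiquinol to cytochrome c. The core proteins Uqcrc1 and Uqcrc2 face the matrix, and Uqcrfs1 is the Rieske iron-sulfur protein. Uqcrc2 was at 1829, 2135 and 2594 in normal brain, 875, 979 and 1261 in glioma and 968, 1192 and 1480.4 in medulloblastoma, with no tumour reaching a normal brain. Its differences were -1.10 ± 0.11 (adjusted p = 8.92e-09) in glioma and -0.84 ± 0.09 (adjusted p = 2.53e-08) in medulloblastoma. Uqcrfs1 was at 833, 963 and 1107 in normal brain, 552, 676 and 803 in glioma and 479, 706 and 966 in medulloblastoma, and it differed by -0.49 ± 0.12 (adjusted p = 0.00145) in glioma and -0.49 ± 0.11 (adjusted p = 0.000255) in medulloblastoma. All gliomas lay below all normal brains for this gene, while medulloblastomas overlapped them. Uqcrc1 fell in both as well, at -0.68 ± 0.14 (adjusted p = 0.000189) in medulloblastoma and -0.47 ± 0.16 (adjusted p = 0.0181) in glioma, and its glioma call ended without glioma B3 (-0.39, adjusted p = 0.0549).

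All 5 accessory genes of complex III fell in medulloblastoma. Uqcr10 was at 396, 518 and 1063 there against 670.3, 919 and 1156 in normal brain (-0.75 ± 0.16, adjusted p = 0.000169). Uqcrq, a ubiquinone-binding protein, differed by -0.67 ± 0.15 (adjusted p = 0.000335) and Uqcr11, whose promoter is shown above, by -0.46 ± 0.12 (adjusted p = 0.00178). Medulloblastoma A3 was the highest tumour for Uqcr10, Uqcrq, Uqcr11 and Uqcrh, at 1063, 1252, 1603 and 3096. For Uqcrq the call came from 1 bright probe set, and a probe set with a mean log2 of 4.27 gave 0.10. In glioma Uqcrh, the hinge protein, was the only accessory gene past the threshold (-0.38 ± 0.16, adjusted p = 0.0455), and that call ended on omission of normal brain B2, B4, B6, B7, C5 or C6 or of glioma A4, B1, B2, B3 or B7 (-0.41 to -0.32). In medulloblastoma the Uqcrh call ended without medulloblastoma C2 (-0.32) or normal brain C5 (-0.31).

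Complex IV, cytochrome c oxidase, reduces oxygen. Cox8a, a small subunit of the common form of the enzyme, was at 1928, 2263 and 2928 in normal brain, 972, 1441 and 1808 in glioma and 548, 989.9 and 1568 in medulloblastoma. Every tumour lay below every normal brain, with differences of -1.24 ± 0.15 (adjusted p = 4.6e-08) in medulloblastoma and -0.70 ± 0.17 (adjusted p = 0.000896) in glioma. Averaging all 3 Cox8a probe sets, 1 of which was too dim to test, gave -0.74, adjusted p = 5.59e-05 in medulloblastoma and -0.34, adjusted p = 0.0799 in glioma. Cox4i1, the regulatory subunit IV, fell in medulloblastoma (-0.58 ± 0.12, adjusted p = 0.000116) and was at -0.26 ± 0.13 (adjusted p = 0.107) in glioma. Cox7a2 fell in glioma, where it was at 2325, 2925 and 3348 against 3580.3, 4042 and 5221 in normal brain with no overlap (-0.45 ± 0.12, adjusted p = 0.00212). Its medulloblastoma difference was -0.11 ± 0.10 (adjusted p = 0.348). Ndufa4, now counted as a subunit of complex IV, fell in glioma (-0.39 ± 0.15, adjusted p = 0.0338), a call that ended without glioma B7 (-0.31) or normal brain B2 (-0.34), and was at -0.21 ± 0.13 (adjusted p = 0.178) in medulloblastoma. Cox6a1 passed in neither, at -0.04 ± 0.12 (adjusted p = 0.808) and 0.20 ± 0.14 (adjusted p = 0.237).

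Several complex IV subunits have an alternative isoform known from muscle, testis or lung. Intensities of these genes were low in most arrays, so the constant of 6.3 compresses their log2 differences. Cox6a2, the heart and skeletal muscle partner of Cox6a1, was at 23.9, 49.6 and 155 in normal brain, 28.5, 45.5 and 236 in glioma and 12.6, 21.4 and 36.8 in medulloblastoma. It fell in medulloblastoma (-1.26 ± 0.31, adjusted p = 0.001), with normal brains B2 (23.9), Z2 (26.4) and C5 (28.7), those with high Gabra6, at the low end of normal. Cox7a1, the muscle partner of Cox7a2, fell in medulloblastoma (-0.61 ± 0.24, adjusted p = 0.031), a call that ended on omission of medulloblastoma B4, C4 or C5 or of normal brain A6, C1 or C5 (-0.60 to -0.47). Cox7b2, a testis isoform, was at 9.6, 15.1 and 51.2 in normal brain, 1.4, 7.65 and 15.8 in glioma and 1.4, 6.8 and 21.8 in medulloblastoma, with differences of -0.76 ± 0.20 (adjusted p = 0.00154) in medulloblastoma and -0.75 ± 0.23 (adjusted p = 0.00671) in glioma. Within prefix YZ2 its glioma difference was 0.09, adjusted p = 0.872. Ndufa4l2, a hypoxia-inducible relative of Ndufa4, was at -0.56 ± 0.23 (adjusted p = 0.0368) in medulloblastoma, a call that ended on omission of medulloblastoma A5, A6, B4, C2 or C6 or of normal brain A6, B4, C2 or C3 (-0.54 to -0.46), and at -0.07 ± 0.26 (adjusted p = 0.83) in glioma. Cox4i2 (0.14 ± 0.17 and 0.18 ± 0.19), Cox6b2 (-0.35 ± 0.25 and 0.16 ± 0.29), Cox8c (-0.14 ± 0.16 and -0.08 ± 0.18) and the supercomplex factor Cox7a2l (0.25 ± 0.13 and 0.11 ± 0.15) passed in neither medulloblastoma nor glioma. No isoform pair was called in opposite directions.

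**Figure D4:**
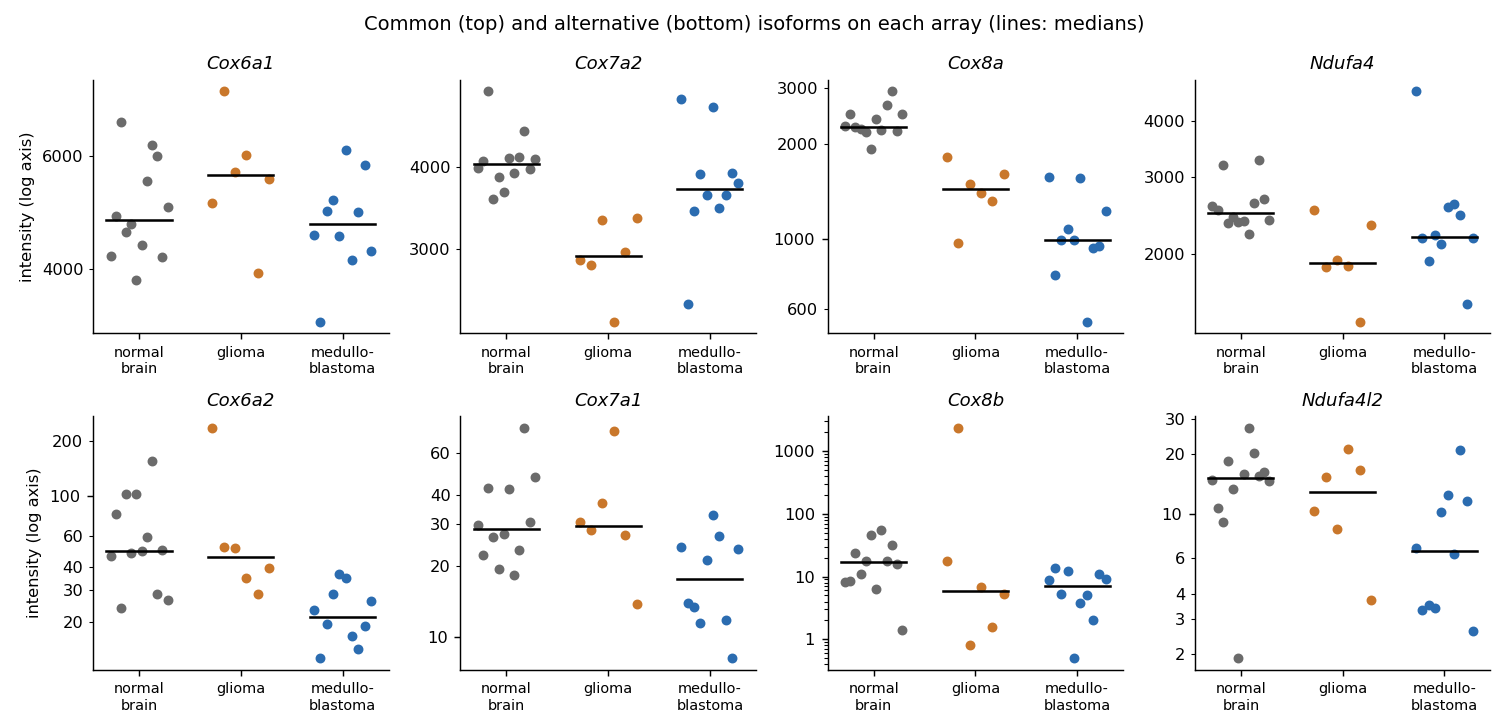
Intensity on each array (vertical log axes, which do not start at 0) of 4 common subunits (top) and their alternative isoforms (bottom) by tissue, with lines at the medians of 12 normal brains, 6 gliomas and 10 medulloblastomas. Cox8b is at 2330 in glioma B1 and at most 54.9 on every other array, and Cox6a2 is at 236 in glioma A4.

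Cox8b, the heart and skeletal muscle partner of Cox8a, was at 2329.9 in glioma B1, 17.6 in A4, 6.7 in B3, 5.2 in C3, 1.6 in B7 and 0.8 in B2. Its glioma difference of 0.13 ± 0.78 (adjusted p = 0.905) became -1.10, adjusted p = 0.0112 without B1. Markers of skeletal muscle were low in glioma B1, at 25.4 for Acta1, 21.6 for Mylpf, 19.5 for Ckm, 9.5 for Tnnt3, 6.4 for Myh4 and 3.1 for Tnnc2. The neighbouring genes on the chromosome, taken in RefSeq order after the value had been seen, were also examined in this array. Psmd13 was at 4005 in B1 and at most 819 in the other gliomas, Ric8a at 1679 against 785, and Bet1l at 871 against 462. Nlrp6 on the other side was at 310.3 against 10.1, and Sirt3, between Psmd13 and Ric8a, was at 295 against 178, with up to 403 in normal brain. The next gene after Nlrp6, Pgghg, was at 32.6 against 81.8. Glioma A4 was the next highest glioma for Psmd13, Ric8a and Bet1l, and medulloblastoma C6 was at 949, 1349 and 609.8, above every other medulloblastoma, with Cox8b at 9.2. The cause was not tested.

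ATP synthase has a catalytic F1 head and a membrane-bound Fo part joined by stalks. Atp5b, the catalytic beta subunit, fell in medulloblastoma, where it was at 2144, 2476 and 3149.6 against 2944, 3163 and 3755 in normal brain (-0.36 ± 0.09, adjusted p = 0.000865). In glioma Atp5b was at 2539.5, 3162 and 3922 (-0.03 ± 0.10, adjusted p = 0.822). The alpha subunit Atp5a1 fell in glioma (-0.66 ± 0.12, adjusted p = 4.42e-05), where 5 arrays lay at 1247 to 1798 and the Rictor-null C3 at 2341, against 2316 to 2932 in normal brain. In medulloblastoma Atp5a1 was at -0.20 ± 0.10 (adjusted p = 0.0909). Atp5e, the epsilon subunit, was higher in medulloblastoma (0.39 ± 0.16, adjusted p = 0.0385), at 984, 1119 and 2678 against 724, 946 and 1228. That call ended without normal brain C2 (0.33), A6 (0.32) or C3 (0.38), or without medulloblastoma C1 (0.38) or C4 (0.31). Atp5c1 and Atp5d passed in neither tumour.

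Atp5md, a small Fo subunit linked to dimers of the enzyme, had the largest fall of any member in both tumours. It was at 1066, 2559.8 and 3276 in normal brain, 465, 710.2 and 1022 in glioma and 210.4, 515 and 3493 in medulloblastoma. The highest medulloblastoma is A3, and the other 9 lay at 210.4 to 736. The differences were -2.32 ± 0.32 (adjusted p = 5.85e-07) and -1.80 ± 0.37 (adjusted p = 0.000176), and without A3 the medulloblastoma value was -2.51. Atp5k (-0.34 ± 0.13, adjusted p = 0.0215) and Atp5l (-0.31 ± 0.12, adjusted p = 0.0242), subunits e and g of the dimer contact, fell in medulloblastoma. In glioma Atp5l fell (-0.43 ± 0.14, adjusted p = 0.00944) and Atp5k was at -0.09 ± 0.14 (adjusted p = 0.605). Atp5j, coupling factor 6, fell in glioma (-0.29 ± 0.12, adjusted p = 0.0494), and that call ended on omission of normal brain B1, B2, B4, B6, B7, C1, C5 or C6 or of glioma A4, B2, B3, B7 or C3 (-0.31 to -0.22).

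Atp5g1, Atp5g2 and Atp5g3 encode the same mature c subunit of the rotor ring. Atp5g2 was higher in glioma, at 826, 1137 and 1357 against 574, 776 and 900.2 in normal brain (0.48 ± 0.12, adjusted p = 0.00158), with 5 of 6 gliomas above every normal brain. In medulloblastoma it was at 549.7, 871 and 1074 (0.07 ± 0.10, adjusted p = 0.565). Atp5g1 passed in neither tumour, at -0.28 ± 0.15 (adjusted p = 0.103) and -0.28 ± 0.17 (adjusted p = 0.176). Atp5g3 fell in medulloblastoma (-0.20 ± 0.08, adjusted p = 0.0433), a call that ended on omission of medulloblastoma A5, B4, C2, C5 or C6 or of normal brain B2, B4, B6, C2 or C5 (-0.20 to -0.16), and was at 0.00 ± 0.10 (adjusted p = 0.995) in glioma. Averaging the Atp5g2 probe sets, which include dim ones, gave 0.19, adjusted p = 0.215 in glioma.

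In medulloblastoma 6 members lay below every normal brain on every array (6.98% of members, against 7.96% of all genes tested). They were Sdha, Ndufs1, Ndufa6, Ndufb10, Uqcrc2 and Cox8a. In glioma 10 did (11.6%, against 9.23%): Sdha, Ndufs1, Ndufa5, Ndufa6, Ndufab1, Uqcrc2, Uqcrfs1, Cox7a2, Cox8a and Atp5md. No member lay above every normal brain in either tumour, against 8.76% of all genes in medulloblastoma and 9.45% in glioma.

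Medulloblastoma and glioma were then compared directly. At an adjusted p under 0.05, 9 members were lower and 5 higher in medulloblastoma, against a background of 14.8% lower and 13.6% higher, and the members' 10.5% and 5.81% were below it. The median difference was -0.17. Sdha (above) was the only member whose groups did not overlap, being lower in medulloblastoma (1.16% of members, against 3.56% of all genes lower and 2.63% higher). In complex I, Ndufa3 (-0.71 ± 0.19, adjusted p = 0.00514) and Ndufa13 (-0.57 ± 0.17, adjusted p = 0.011) were lower in medulloblastoma, and Ndufa2 (0.56 ± 0.13, adjusted p = 0.00226) and Ndufab1 (0.39 ± 0.13, adjusted p = 0.0285) were higher. Ndufa2 was at 1483, 1798 and 2799 in medulloblastoma and 1002, 1175 and 1876 in glioma. In complex IV, Cox6a2 (-1.13 ± 0.38, adjusted p = 0.026), Cox8a (-0.54 ± 0.18, adjusted p = 0.0234) and Cox6b1 (-0.48 ± 0.14, adjusted p = 0.0123) were lower and Cox7a2 (0.34 ± 0.13, adjusted p = 0.0429) was higher. Uqcr10 of complex III was lower (-0.51 ± 0.19, adjusted p = 0.0473) and Sdhaf3 was higher (0.78 ± 0.24, adjusted p = 0.0147).

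The alternating subunits of the F1 head were called in opposite directions in this comparison: Atp5b was lower in medulloblastoma than in glioma (-0.33 ± 0.11, adjusted p = 0.0212) and Atp5a1 higher (0.46 ± 0.13, adjusted p = 0.00761). Atp5g2 was lower (-0.40 ± 0.13, adjusted p = 0.0183). Few of these calls held on every omission of 1 array, namely Sdha, Ndufa3, Ndufa2 and Sdhaf3. Without glioma A4 only 2 lower calls were left, and the difference of Cox6a2, which stood at 236 in A4, became -0.51, adjusted p = 0.305. That omission also ended the calls of Ndufa13 (-0.44), Cox8a (-0.46), Cox6b1 (-0.44), Atp5b (-0.28), Atp5a1 (0.38) and Atp5g2 (-0.34). Without medulloblastoma C1, in contrast, 17 members were lower. Calls also ended for Cox8a on omission of glioma A4 or C3 (-0.50 to -0.46), Atp5g2 of glioma A4 or C3 (-0.36 to -0.34), Atp5b of medulloblastoma B4 or of glioma A4 or B2 (-0.29 to -0.27), Cox7a2 of medulloblastoma A3, B4, B6, C1 or C5 or of glioma A4, B1, B3, B7 or C3 (0.28 to 0.38) and Uqcr10 of medulloblastoma A5, A6, B4, B6, C2, C4, C5 or C6 or of glioma A4, B1, B2, B3 or C3 (-0.54 to -0.44). Ndufab1 lost its call without medulloblastoma B6 (0.37), glioma B7 (0.30) or C3 (0.36). Within prefix YZ the median member difference was -0.22 and within YZ2, with 2 gliomas, it was 0.02 and no member was called, so the direction did not hold within both.

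Most genes with further probe sets gave the same picture. Beside the brightest probe set, 38 genes had 54 others with a mean log2 of 7 or more. Of these, 48 had the same sign as the brightest in medulloblastoma against normal brain and 46 in glioma against normal brain. The medians were -0.34 for the others and -0.27 for the brightest of the same genes in medulloblastoma, and -0.30 and -0.14 in glioma. Of 25 dim probe sets 13 and 15 had the same sign. Among genes that did not pass by their brightest probe set, another bright one was called lower for 6 genes in medulloblastoma (Atp5h, Atp5pb, Cox5a, Cox6a1, Ndufb6 and Ndufv2) and for 8 in glioma.

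**Figure D5:**
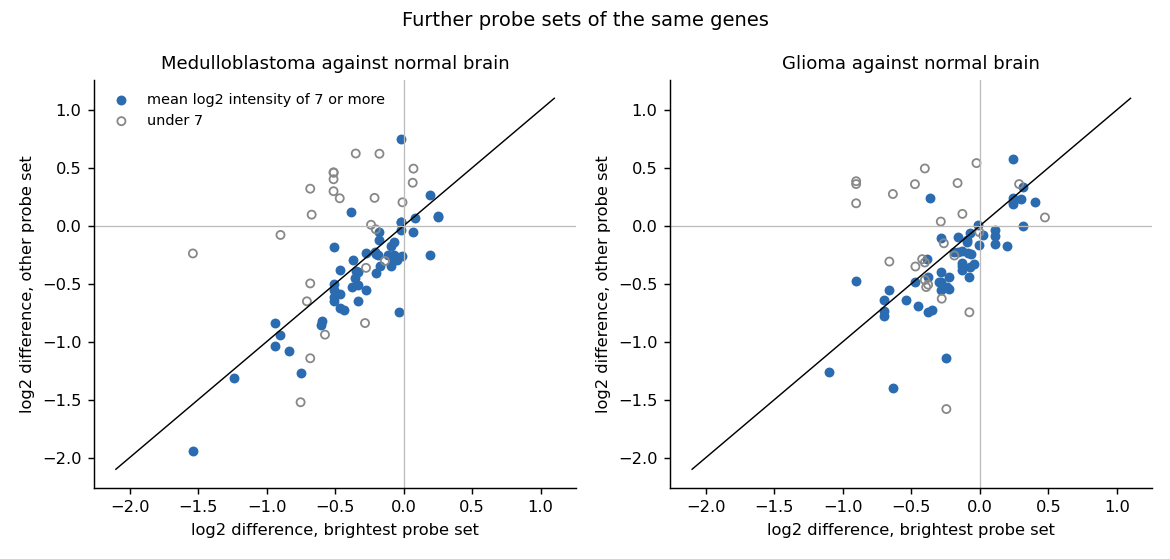
Log2 difference from normal brain of each further probe set of a member (vertical axis) against that of the gene's brightest probe set (horizontal axis), for both tumours, with the line of equality. Filled points (mean log2 intensity of 7 or more, 54 probe sets) lie mostly below the line, 41 of them in medulloblastoma and 42 in glioma, and the open points are the 25 dimmer probe sets.

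No member was called in any comparison of Rictor genotypes by limma, where the background over all genes was also close to none: 0.00718% of genes in each medulloblastoma comparison, 0 in normal brain, and 0.0215% in glioma. At an unadjusted p under 0.05 the counts among 86 members were 1 for Rictor-null against p53-null-only medulloblastoma, 0 for Rictor-null against heterozygous medulloblastoma, 2 for normal brain and 5 for glioma, beside 605, 199, 439 and 637 of the 13931 genes tested. The median member difference was 0.11, 0.13, 0.02 and 0.13 in that order, and the median over all genes tested was 0.06, 0.01, 0.01 and -0.04. Labelled Rictor-null medulloblastomas had mean values over the 75 brighter members of 10.07 to 10.65, heterozygous ones 10.10 and 10.11, and p53-null-only ones 9.96, 9.98 and 10.55. The groups overlapped. Normal brains labelled Rictor-null (10.39 to 10.73) and heterozygous (10.48 to 10.82) overlapped too.

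The 5 members with the smallest p in each comparison are given as not passing. In Rictor-null against p53-null-only medulloblastoma, Ndufa12 differed by 0.72 ± 0.25 (unadjusted p = 0.0157, adjusted p = 0.981). It was at 2325, 2000.3, 3263, 2844 and 1841 in the Rictor-null tumours and 1476, 1089.5 and 1918 in the p53-null-only ones, and the groups overlapped. Ndufs1 (0.48 ± 0.22), Cox6b1 (0.44 ± 0.22), Ndufv1 (1.12 ± 0.56) and Uqcrfs1 (0.39 ± 0.23) followed. Against heterozygous medulloblastomas they were Cox7a2l (0.45 ± 0.29), Ndufa10 (0.38 ± 0.25), Ndufv2 (0.37 ± 0.26), Cox7c (-0.66 ± 0.47) and Cox4i1 (0.34 ± 0.24). In normal brain they were Ndufa4l2 (0.64 ± 0.27), Sdhaf1 (0.27 ± 0.12), Sdhaf2 (-0.19 ± 0.12), Sdhaf3 (-0.28 ± 0.19) and Cox8a (0.15 ± 0.10). The 95% interval of Cox8a there, -0.08 to 0.38, shows the precision for a bright gene with 5 arrays a group. The same interval for Cox8a in Rictor-null against heterozygous medulloblastoma was -0.88 to 0.76.

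The comparison of the 1 Rictor-null glioma, C3, with the 4 heterozygous ones assumes that C3 varies like the other groups. Atp5a1 was at 2341 in C3 and 1276, 1282, 1526 and 1798 in the heterozygous gliomas (0.68 ± 0.24, unadjusted p = 0.0101, adjusted p = 0.839). Sdhd was at 587 against 263 to 446 (0.76 ± 0.29, unadjusted p = 0.0144, adjusted p = 0.909), and Ndufa2 at 1876 against 1029.5 to 1442 (0.65 ± 0.27, unadjusted p = 0.0228, adjusted p = 0.993). C3 was thus above all 4 for these genes. The dim genes Cox7b2 (-1.07 ± 0.42) and Ndufa4l2 (-1.08 ± 0.52) ran lower. C3 was the highest glioma for 16 of the 75 brighter members, fewer than B1 (29) and A4 (23). Subtracting the Rictor effect in normal brain from that in medulloblastoma also called no member (0 of 86 at an unadjusted p under 0.05 as well, beside 264 of 13931 genes), and the smallest p belonged to Ndufa10 (0.47 ± 0.24), Cox7a2l (0.53 ± 0.29), Ndufv2 (0.49 ± 0.27), Cox7c (-0.77 ± 0.44) and Ndufb3 (0.50 ± 0.30).

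Genes that serve the chain without being subunits were described from lists. Over all genes tested, the background was 32% lower and 32.2% higher in medulloblastoma, and 25.5% lower and 28.4% higher in glioma. Of 38 assembly factors tested, 16 were lower and 7 higher in medulloblastoma, and 15 lower and 2 higher in glioma. The ATP synthase assembly factor Atpaf1 (-1.89 ± 0.18 in medulloblastoma and -1.86 ± 0.20 in glioma) and the complex III factor Ttc19 (-1.69 ± 0.20 and -1.60 ± 0.23) fell most. The complex I factors Nubpl (0.70 ± 0.20) and Ndufaf4 (0.69 ± 0.16) rose in medulloblastoma, and the complex IV factors Sco1 (0.78 ± 0.16) and Cox16 (0.62 ± 0.25) in glioma. Medulloblastoma was above glioma for Ndufaf6 (0.75 ± 0.16) and Coa7 (0.68 ± 0.21), with 4 higher in all, and below it for Surf1 (-0.53 ± 0.19).

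Of 16 genes of the citric acid cycle and pyruvate dehydrogenase, 9 were lower and 2 higher in medulloblastoma and 7 lower and 2 higher in glioma. Ogdh (-0.93 ± 0.14) and Idh3b (-0.91 ± 0.14) fell most in medulloblastoma and Dlat (-0.91 ± 0.14) and Sucla2 (-0.71 ± 0.11) in glioma. Suclg2, the GTP-forming alternative to Sucla2, rose in both (0.88 ± 0.20 and 0.89 ± 0.23), as did Dlst (0.31 ± 0.11 and 0.39 ± 0.13). Ogdh (-0.57 ± 0.17) and citrate synthase, Cs (-0.52 ± 0.14), were lower in medulloblastoma than in glioma. Of 22 electron carrier and exchange genes, 11 were lower and 3 higher in medulloblastoma (background 32% and 32.2%). In glioma 7 were lower and 2 higher (background 25.5% and 28.4%). Ckmt1, mitochondrial creatine kinase, had the largest fall (-4.37 ± 0.47 and -3.96 ± 0.54), followed by the aspartate-glutamate carrier Slc25a12 in medulloblastoma (-1.64 ± 0.19) and the glutamate carrier Slc25a22 in glioma (-1.35 ± 0.37). Etfa (1.15 ± 0.17) and Coq6 (0.80 ± 0.14) rose in medulloblastoma, and Etfdh (0.93 ± 0.14) and Coq6 (0.72 ± 0.16) in glioma. Between the tumours, Coq9 (-0.58 ± 0.16) and the phosphate carrier Slc25a3 (-0.47 ± 0.13) were lower in medulloblastoma and Etfa (0.86 ± 0.21) and Coq8a (0.61 ± 0.23) higher.

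The regulators of mitochondrial biogenesis and mtDNA maintenance had more rises than falls. Of 20 tested, 11 were higher and 5 lower in medulloblastoma, against a background of 32.2% and 32%. In glioma 10 were higher and 5 lower, against 28.4% and 25.5%. The coactivator Ppargc1a (-3.25 ± 0.30) and the nuclear receptor Esrrg (-2.33 ± 0.42) fell most in medulloblastoma. In glioma Esrrg (-2.34 ± 0.48) and Ppargc1b (-1.46 ± 0.41) fell most. Gabpa, which encodes the DNA-binding subunit of GABP, rose in both (1.65 ± 0.15 and 1.68 ± 0.17), Ssbp1, the mitochondrial single-strand binding protein, in medulloblastoma (1.59 ± 0.14) and the mtDNA polymerase gene Polg in glioma (2.03 ± 0.40). Ppargc1a (-1.91 ± 0.36) and Polg (-1.86 ± 0.43) were lower in medulloblastoma than in glioma, and Ssbp1 (0.67 ± 0.17) and Tfam (0.49 ± 0.13) were higher. Of 11 import and chaperone genes, 6 were higher and 2 lower in medulloblastoma and 3 higher and 2 lower in glioma. The glioma counts were not above the background in either direction. The import receptor Tomm70a (-0.96 ± 0.18 and -1.45 ± 0.21) and Timm17a (-0.28 ± 0.11 and -0.51 ± 0.13) fell, while Timm50 (1.20 ± 0.20 and 0.99 ± 0.22) and the chaperonin Hspd1 (0.90 ± 0.14 and 0.93 ± 0.16) rose. Timm23 was higher (0.48 ± 0.11) and Tomm40 lower (-0.49 ± 0.18) in medulloblastoma than in glioma.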

How the data were processed

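Intensities are the authors' deposited MAS5 values on a linear scale, scaled to a trimmed mean of about 100 on every array, made with MAS5 and GCOS per the submitters' processing notes (versions not given in the sources used here). Each of 28 arrays holds 45101 probe sets. The median intensity per array was 18.8 to 27.8, and array number limits the precision. Values were taken as log2(intensity + 6.3). Each gene was represented by its brightest single-symbol probe set, and genes above the 30th percentile of mean log2 (3.88) were tested.

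Tumours and normal brains were compared with limma 3.58.1 (lmFit and eBayes with trend, R 4.3.3) on all 28 arrays with tissue and genotype as terms, genotypes within a tissue or over 10 group means. P-values were adjusted by Benjamini-Hochberg over 13931 genes. The fit of medulloblastoma against normal brain was tested on simulated data. The share of changes recovered was 0.242 at a log2 size of 0.5, 0.806 at 1 and 1 at 2. Far fewer genes were changed there than were called in these data, so recovery may differ here. A member that did not pass may therefore still differ. ± is a standard error.

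Genes named with values were all core subunits of complexes I and III, all of complex II, the isoform pairs, up to 3 called members with the largest rise and 3 with the largest fall per role and tissue comparison, the 5 smallest p per genotype comparison, and up to 2 rises and 2 falls per list. Others are named where a call or an array turned on them. Members and lists were chosen with earlier results of these data known. The marker lists held no blood marker that was tested. Alternatives covered normalization, the constant added, the filter, the probe set, the title prefix, the actin ratio, the code as a block and each array left out. Other tumours and brains of the series were not used here.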

Additional observations from a re-analysis of the deposited data

Results flagged for a closer look

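For 20 of the 172 groups examined (each of 86 members in the 6 gliomas and in the 10 medulloblastomas), the highest or lowest array lay far from the others by Dixon's ratio. That is 11.6%, where chance gives about 5% (about 1 in 20) for independent, normally distributed values. The intensities were on a linear scale and members share arrays, so the 5% is only a rough guide. Most belonged to medulloblastomas C1 and A3, the arrays with the highest mean member values.

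In medulloblastoma C1 intensities were high for the complex I genes Ndufv1 (3305.7, next highest 1106.8), Ndufs8 (3962.7, next 1578.4), Ndufb7 (1782.0) and Ndufb9 (3691.4). They were also high there for the complex IV genes Cox5a (4450.2) and Cox5b (4480.1) and the ATP synthase stalk genes Atp5h (4481.3) and Atp5pb (4922.7). In medulloblastoma A3 they were high for other members: Atp5md (3492.5, next 736.1), Atp5l (2493.1), Uqcrh (3095.9), Ndufa4 (4680.3, next 2595.0), Ndufa7 (2138.1), Ndufs4 (816.5) and the dim Cox7b2 (21.8). A3 had the lowest actin 3' to 5' ratio of the medulloblastomas, at 1.49, and A5, where member values were low, was at 1.53. The part of this ratio in the values of A3 was not tested.

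Among gliomas, Cox8b in B1 (2329.9, next highest 17.6) and Cox6a2 in A4 (236.4, next 51.6) stood apart, as did Ndufa8 in B1 (1178.6) and Uqcrc2 in B3 (1261.4). Cox5b in B7 was low (2195.9, next lowest 2978.3). The causes were not tested.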

How the results depend on the processing

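The counts below are of members called, given against the reported 2 higher and 49 lower in medulloblastoma, 4 higher and 30 lower in glioma (both against normal brain), and 5 higher and 9 lower in medulloblastoma against glioma. Leaving out 1 array gave 1 to 3 higher and 44 to 53 lower in medulloblastoma, 1 to 4 higher and 24 to 33 lower in glioma, and 3 to 5 higher and 2 to 17 lower between the tumours. The share of all genes called is not given for any of these settings, so a change in a count is not particular to the members. Within prefix YZ the counts were 1 and 23, 2 and 12, and 2 and 5. Within YZ2, with 2 gliomas, they were 0 and 11 in glioma and 0 and 0 between the tumours. Rictor-null arrays alone gave 1 and 25 in medulloblastoma, and Rictor-heterozygous arrays alone 1 higher in glioma. The actin ratio as a covariate left 1 higher in each tumour, excluding normal brain C2 left 1 higher in medulloblastoma, the mean of all probe sets left 1 higher in glioma, and the brightest probe set outside the _x and _s types left 3 higher between the tumours.

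Signs reversed in medulloblastoma for Ndufab1 (0.094, mean of probe sets), Ndufa12 (0.62) and Uqcrq (0.10; both by probe sets outside the _x and _s types) and Cox7c (-0.79, YZ alone). In glioma they reversed for Atp5g3 (-0.23, quantile normalization), Atp5c1 (0.54, other probe set), Cox7b2 (0.086, YZ2 alone) and Cox8b (-1.10 without B1, and up to 0.52 without another array). Between the tumours Cox6a2 reversed (0.024, YZ2 alone). The causes were not tested.

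Codes shared by tumours and normal brains were tried as a pairing. Deviations of 11 same-code pairs correlated at -0.12 to 0.35, above 0.1 in 7, and 5 correlated best with their own code. With the code as a replicate block, medulloblastoma had 1 higher and 44 lower, glioma 1 and 31, and the tumour comparison 0 and 0. As a random block the code gave 2 and 49, 4 and 36, and 5 and 9. In every setting run, no member was called between Rictor genotypes. Leaving out the only Rictor-null glioma could not be fitted. Few arrays per genotype limit the precision, and the 11 members with a mean log2 under 7 lie near background.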
